A study of Mus musculus with 48 samples.

Results

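*Hmgb3* and its relatives encode high mobility group proteins, small and abundant chromatin proteins of the nucleus. The 6 genes described here, *Hmgb1*, *Hmgb2*, *Hmgb3*, *Hmgn1*, *Hmgn2* and *Hmgn3*, were 6 of the 24444 genes of the deposited expression table, in which 18 genes had a high mobility group symbol. *Hmgb3* was chosen by its lower values in Chd8 V986*/+ than in wild-type cortex at 1 and 6 months. Those values, and every contrast built on them, are therefore given as a description with no test. The other 5 genes are named relatives of *Hmgb3*.

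The study asked how losing 1 copy of *Chd8*, which encodes a chromatin remodeler linked to autism, affects gene expression in the mouse cortex as animals age. Wild-type (WT) males were compared with male littermates carrying 1 Chd8 V986*/+ allele (HET), in which inserted stop codons interrupt the gene in every cell of the body. The allele was made by genome editing, came from 1 founder, and was kept on the C57BL/6J strain. PolyA RNA of the dissected cortex was sequenced from 6 WT and 6 HET mice per age, from embryos (E14.5) and from animals 1, 6 or 12 months old, 48 mice in all, so ages were compared between different animals.

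HMGB proteins bend DNA through HMG boxes and bind without a strict sequence preference, and they help other factors reach their sites. *Hmgb1* is made in nearly all cells and its protein also acts outside the cell as an alarm signal, whereas *Hmgb2* and *Hmgb3* are known for high levels in embryos and in dividing or immature cells. HMGN proteins bind the nucleosome itself and compete with linker histones for chromatin. In the developing brain, both families are known to be abundant in neural progenitors.

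Expression is given as VST expression, the variance-stabilized values that the authors deposited, in which a difference of 1 stands for about a doubling. The lowest value of the table, 2.1433, was shared by 15.7% of all values and is called the floor. VST expression is not scaled for transcript length, so levels were compared between samples and not between genes. Where the gene with the highest value of a marker list is named, that value is not a measure of its abundance against the others. The 6 genes were above the filter on low values (a mean at least 0.5 above the floor) in every comparison. The table holds no read counts, so the number of reads behind each value is unknown here.

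On the NCBIM37 (mm9) assembly, *Hmgb3* lay on chromosome X at 68809093 to 68813851 on the plus strand, with no other annotated gene overlapping it. The other 5 genes lay on chromosomes 5, 8, 16, 4 and 9, and none overlapped another annotated gene either. Several had close copies elsewhere in the genome. Windows of 50 bases from the annotated coding transcripts of these 6 genes were sought, on the same strand, in exons of all other genes. Of these windows, 57% in *Hmgb3* were present there, in 6 genes of which 5 were pseudogenes. The share was 49.4% in *Hmgn2* (12 genes), 23.8% in *Hmgb2* (7 genes), 19.8% in *Hmgb1* (49 genes), 6.41% in *Hmgn1* (4 genes) and 0% in *Hmgn3*. Of all those other genes, 1 copy of *Hmgb1* had values in the table. The authors quantified transcripts with Salmon, and how many reads it assigned to each copy is not given in the sources used here. The values of all members but *Hmgn3* are uncertain to that extent.

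Promoters of the 3 HMGB genes are printed here as the 250 bases before the RefSeq start. RefSeq promoters on GRCm38.p6 were matched for 5 of the 6 members, with 6 entries, since *Hmgb1* had 2; *Hmgn3* had none. Capitals mark CCAAT (or ATTGG on the other strand), the letters of the CCAAT box, and TTTGAA (or TTCAAA), the letters of a cell cycle element known from genes of mitosis. The *Hmgb3* window lies at chrX:71555667-71555916 on the plus strand, the *Hmgb2* window at chr8:57511593-57511842 on the plus strand and the *Hmgb1* window at chr5:149053058-149053307 on the minus strand, each read 5′ to 3′ along its gene.
Hmgb3: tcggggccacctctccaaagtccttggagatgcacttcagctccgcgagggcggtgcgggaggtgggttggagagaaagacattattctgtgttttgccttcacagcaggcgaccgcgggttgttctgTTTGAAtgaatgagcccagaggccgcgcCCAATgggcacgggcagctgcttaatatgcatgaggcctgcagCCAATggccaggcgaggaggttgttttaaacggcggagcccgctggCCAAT
Hmgb2: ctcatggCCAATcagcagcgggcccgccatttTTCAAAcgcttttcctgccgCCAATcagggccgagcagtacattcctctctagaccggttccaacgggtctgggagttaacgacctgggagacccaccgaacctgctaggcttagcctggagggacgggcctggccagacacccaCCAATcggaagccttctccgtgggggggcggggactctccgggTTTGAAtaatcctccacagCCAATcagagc
Hmgb1: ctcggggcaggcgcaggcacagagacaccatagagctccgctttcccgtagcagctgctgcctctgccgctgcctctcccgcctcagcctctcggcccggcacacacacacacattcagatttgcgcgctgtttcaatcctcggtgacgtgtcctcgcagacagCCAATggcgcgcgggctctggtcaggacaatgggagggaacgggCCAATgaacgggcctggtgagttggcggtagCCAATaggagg
*Hmgb3* held 3 CCAAT matches and 1 TTTGAA match, *Hmgb2* held 4 and 2, and this window of *Hmgb1* held 3 and 0. *Hmgn1* held 2 CCAAT matches and *Hmgn2* held 0, with 0 TTTGAA matches in both, and the second window of *Hmgb1* held 0 of either. Among all 32851 RefSeq promoter windows of the same length, 33.8% held CCAAT at least once, 10.1% at least 2 times and 2.79% at least 3 times, and 16% held TTTGAA. A match of letters is a description of these windows and not a bound site.

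The genotype labels were checked with *Chd8*, which was lower in HET at every age. Its HET minus WT differences were -0.63 in the embryo and -0.67, -0.64 and -0.54 at the ages after birth, in order (limma adjp 0.0261, 3.01e-06, 1.07e-07 and 0.00261; 6 mice per group). All 6 HET mice were below all 6 WT mice at each age, and HET means were 64.6%, 62.7%, 64.2% and 68.8% of WT. At E14.5 the limma call was lost without HET replicate 4 (adjp 0.128) and without WT replicate 2, 4 or 5 (adjp 0.124, 0.128 and 0.12), with differences between -0.63 and -0.61. In each of these cases 0 genes were called at that age, and without WT replicate 6 the number was 2.

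Libraries of E14.5 differed in markers of other brain regions. The mean VST expression of 12 midbrain, hindbrain and spinal cord markers was 3.98, 5.70, 5.63, 4.67, 7.26 and 3.32 in WT replicates 1 to 6. It was 3.30, 3.41, 4.83, 3.91, 4.08 and 3.80 in HET replicates 1 to 6. WT replicates 2, 3 and 5 were above all HET mice, and WT replicate 5 stood highest. The log2 of the summed level of the list ran from 9.33 to 11.63 in WT and from 8.94 to 9.93 in HET. *Gbx2* had the highest value of the list in both genotypes, and *Hoxa2*, *Hoxb2*, *Hoxa5*, *Hoxb5* and *Hoxc4* were at the floor in all HET mice of this age but none of the list was at the floor in all WT mice. Of the 12 markers 11 were tested between genotypes at E14.5; 0 were called by limma, and all 11 differences were negative (-2.17 to -0.29). At 1, 6 and 12 months the list means were between 2.98 and 3.07 in both genotypes, with the highest value in *Tph2* or *En2*. The member values of E14.5 are therefore given with all mice and also without these 3 WT mice, an alternative chosen after seeing the data. Without them limma called 0 genes at E14.5, and *Chd8* differed by -0.60 (limma adjp 1.00). With the marker mean as a covariate it differed by -0.58 (limma adjp 0.394).

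In the comparison of genotypes, *Hmgb3* stood lower in HET at 1 and 6 months, the values that chose it, and was close between genotypes at E14.5 and 12 months. Without the replicate number as a block, none of the other 5 members passed the test at any age (limma adjp below 0.1). The member nearest to passing was *Hmgn2*, with lower values in HET at 6 and 12 months. At E14.5, 0 of 6 members were called by limma against 0.00593% of 16877 genes (1 gene, *Chd8*), with 769 genes and no member at an unadjusted p below 0.05. At 1 month, 0 of the 5 members other than *Hmgb3* were called against 0.139% of 17221 genes, with 1515 genes and none of the 5 at an unadjusted p below 0.05. At 6 months, 0 of 5 were called against 0.0927% of 17256 genes, with 1310 genes, *Hmgn2* among them, at an unadjusted p below 0.05. At 12 months, 0 of 6 were called against 0.0463% of 17288 genes, with 2000 genes, *Hmgn2* among them, at an unadjusted p below 0.05. With 1 fit of all 48 samples the counts over all genes were 93 at E14.5, 37 at 1 month and 520 at 12 months, with 0 of the members counted here called. The counts also moved with single mice, but in no case was any of the members counted here called. The 24 genes of 1 month became 3 without HET replicate 5, 4 without HET replicate 4 or WT replicate 6, and 10 without WT replicate 2. The 16 genes of 6 months became 5 without HET replicate 5, and between 6 and 8 without HET replicate 1, 2, 4 or 6 or WT replicate 4, 5 or 6. The 8 genes of 12 months became 251 without WT replicate 3 and 16 without WT replicate 4, and between 2 and 5 without HET replicate 2, 3, 4 or 5 or WT replicate 1, 2, 5 or 6.

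The spread of the groups was also compared directly. At E14.5, 0 of 6 members had groups that did not overlap, against 0.261% of the genes tested. At 1 month, 0 of the other 5 did, against 0.825%. At 6 months, *Hmgn2* did, 1 of 5 against 0.527%, and at 12 months 0 of 6 did, against 0.868%. *Hmgb3* itself had separate groups at 1 and 6 months, which its choice used.

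*Hmgb3* encodes the HMGB protein best known from embryos and blood progenitors. At E14.5 its VST expression was 11.95, 12.00 and 12.03 (lowest, median and highest of 6 mice) in WT and 11.81, 11.97 and 12.03 in HET. The groups overlapped, and 3 HET mice lay below every WT mouse while 2 lay just above the highest. HET minus WT was -0.05 (95% interval -0.15 to 0.06, limma adjp 0.983, exact permutation p 0.297), and -0.06 without the 3 WT mice. The difference at this age was within the spread between mice.

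At 1 month, *Hmgb3* VST expression was 8.61, 8.65 and 8.77 in WT and 8.24, 8.28 and 8.38 in HET. All HET mice lay below all WT mice, with a gap of 0.23 between the nearest mice. Means were 8.68 ± 0.06 and 8.30 ± 0.05 (SD, n = 6), a difference of -0.38, which puts HET at 76.8% of WT. At 6 months the values were 8.47, 8.61 and 8.73 in WT and 8.04, 8.17 and 8.39 in HET. Again no HET mouse reached the lowest WT mouse, and the gap between the nearest mice was 0.07. Means were 8.61 ± 0.10 and 8.18 ± 0.12 (SD, n = 6), a difference of -0.43 and 74.1% of WT. By size of fall, *Hmgb3* ranked 410 of 17221 genes at 1 month and 250 of 17256 at 6 months. In bulk tissue, fewer cells that express *Hmgb3* and less *Hmgb3* RNA per cell cannot be told apart.

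Over all 48 samples, the mean of replicates 1 to 3 equalled that of replicates 4 to 6 in every gene (within 3.38e-14), an equality that subtracting the mean of each set gives. The authors describe a batch-corrected model without naming the batch, so that any mean difference between these sets is missing from the deposited values. Both sets were also looked at alone. At 1 month the difference was -0.37 in replicates 1 to 3 and -0.39 in replicates 4 to 6, and at 6 months it was -0.43 and -0.44. Leaving out any 1 mouse kept it between -0.40 and -0.36 at 1 month and between -0.48 and -0.40 at 6 months. These values describe the mice that chose *Hmgb3* and are no separate support for the differences.

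At 12 months, *Hmgb3* VST expression was 8.23, 8.40 and 8.60 in WT and 8.22, 8.32 and 8.40 in HET. The groups overlapped, and 3 WT mice lay within the range of the HET mice. HET minus WT was -0.08 (95% interval -0.23 to 0.08, limma adjp 0.705, exact permutation p 0.29), with HET at 94.9% of WT and 5 of 6 HET mice below the WT mean. The difference between genotypes at 12 months minus that at 6 months was 0.36, a value that uses the 6 months that chose the gene and has no test. The difference at 12 months minus that at E14.5 was -0.03 (limma adjp 0.916), and -0.02 without the 3 WT mice of E14.5. Its value uses neither age that chose the gene, but its test takes the spread between mice from all ages.

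**Figure D1:**
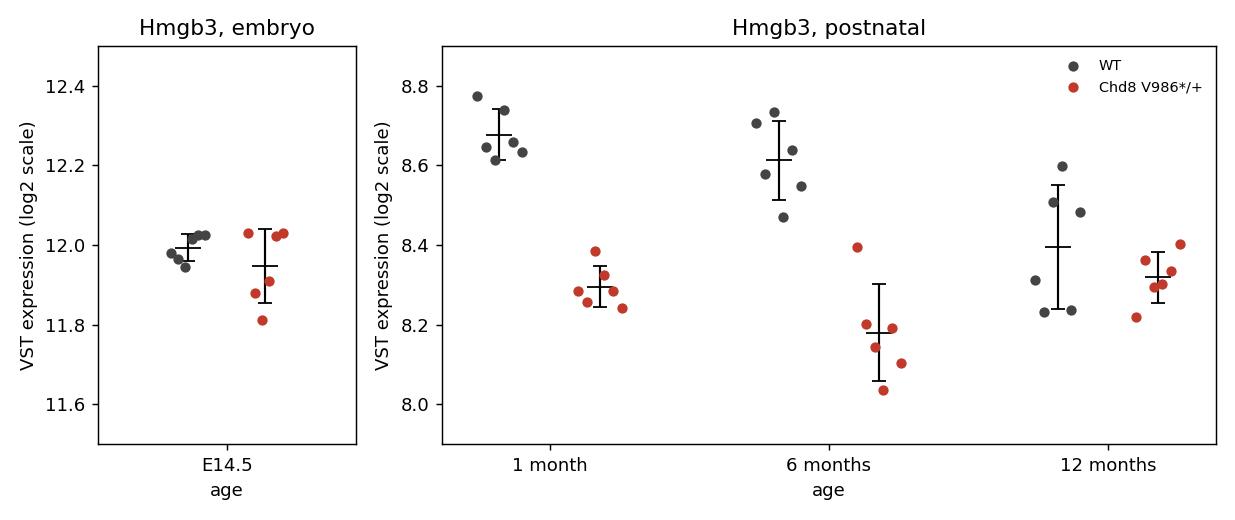
VST expression of Hmgb3 (log2 scale) in every mouse by age, with E14.5 on its own axis, for WT in grey and Chd8 V986*/+ in red. Points are mice, and bars give the mean ± SD of 6 mice. The groups lie apart at 1 month (lowest WT 8.61, highest HET 8.38) and 6 months (8.47 and 8.39) and overlap at E14.5 and 12 months.

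Across groups, mean *Hmgb3* VST expression was highest at E14.5, at 11.99 in WT and 11.95 in HET. Then came WT at 1, 6 and 12 months (8.68, 8.61 and 8.39), HET at 12 months (8.32), HET at 1 month (8.30) and HET at 6 months (8.18). The step from the embryo to the postnatal groups is far outside the spread of each group. WT at 1 and 6 months overlapped, as did WT and HET at 12 months and HET at 12 months and 1 month. From 6 to 12 months the WT mean moved by -0.22 and the HET mean by 0.14, values given without a test.

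*Hmgb1* encodes the most widespread HMGB protein. Its VST expression at E14.5 was 12.26, 12.31 and 12.61 in WT and 12.33, 12.41 and 12.59 in HET. HET mice lay within the range of WT mice, whose highest value, of replicate 6, stood apart from the other 5 (12.26 to 12.34). The difference was 0.10 (95% interval -0.05 to 0.25, limma adjp 0.982), and 0.03 without the 3 WT mice. After birth the groups overlapped at each age, with differences of 0.04, -0.02 and 0.01 in order of age (limma adjp 0.861, 0.959 and 0.968).

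*Hmgb2* encodes the HMGB protein most tied to dividing cells. At E14.5 its VST expression was 10.95, 11.23 and 11.87 in WT and 11.27, 11.43 and 11.73 in HET. All 6 HET mice lay above the WT mean, but WT replicate 6 was the highest mouse of all. HET minus WT was 0.22 (95% interval -0.06 to 0.51, limma adjp 0.982, exact permutation p 0.177). It was 0.10 with the regional marker mean as a covariate and 0.04 without the 3 WT mice, which include the 2 lowest *Hmgb2* values of the age. At 1, 6 and 12 months its differences were 0.10, -0.02 and 0.13 (limma adjp 0.797, 0.988 and 0.72), within overlapping groups. In the sets of replicates the first of these was 0.24 and -0.04, and the second 0.01 and -0.06.

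**Figure D2:**
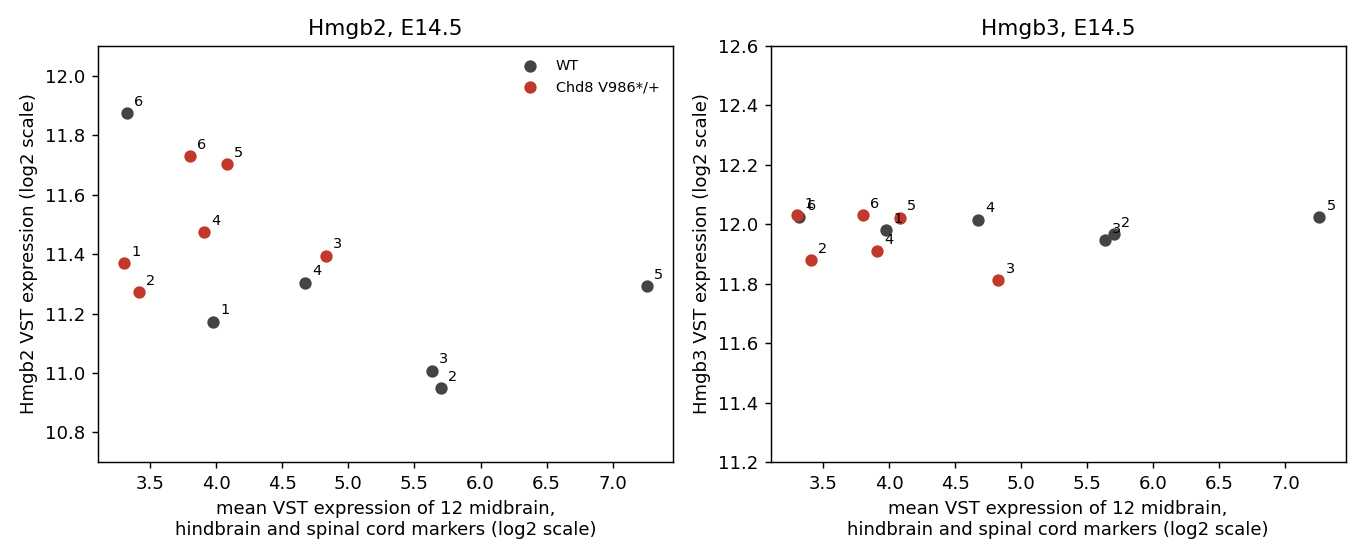
VST expression of Hmgb2 (left) and Hmgb3 (right) in each E14.5 mouse against the mean VST expression of 12 midbrain, hindbrain and spinal cord markers, both on the log2 scale, with replicate numbers beside the points. WT replicates 2, 3 and 5 lie farthest right (5.70, 5.63 and 7.26), and Hmgb3 stays between 11.81 and 12.03 over the whole range.

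Among the nucleosome-binding proteins, *Hmgn2* differed most between genotypes at 6 months. At 1 month its VST expression was 9.28, 9.42 and 9.46 in WT and 9.29, 9.31 and 9.55 in HET, in overlapping groups that differed by -0.06 (limma adjp 0.799). At 6 months it was 9.27, 9.32 and 9.53 in WT and 8.95, 9.07 and 9.24 in HET. All HET mice lay below all WT mice, with a gap of 0.02 between the nearest mice. The difference came to -0.26 (SE 0.06, 95% interval -0.39 to -0.12), which puts HET at 83.7% of WT. It did not pass the test across all genes (limma p 0.000985, adjp 0.266), and ranked 64 of 17256 genes by p. The exact permutation p over 6 and 6 mice was 0.0022, the smallest that these groups can give, and was the lowest of 22 such tests on the members. The difference was -0.30 in replicates 1 to 3 and -0.22 in replicates 4 to 6.

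At 12 months, *Hmgn2* VST expression was 9.14, 9.35 and 9.65 in WT and 8.97, 9.17 and 9.32 in HET. All 6 HET mice lay below the WT mean and 3 below every WT mouse. HET minus WT was -0.22 (95% interval -0.40 to -0.03, limma adjp 0.353, exact permutation p 0.0519), with -0.12 and -0.32 in the sets of replicates. At E14.5 it was 0.10 (limma adjp 0.982), and -0.05 without the 3 WT mice, so the sign at that age depended on those libraries. The change of the genotype difference from E14.5 to 12 months was -0.32 (limma adjp 0.262), which did not pass the test, and -0.17 without the 3 WT mice (limma adjp 0.847).

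*Hmgn1* encodes a close relative of *Hmgn2*, from a gene within the mouse counterpart of the Down syndrome region. Its VST expression at 12 months was 9.97, 10.11 and 10.59 in WT and 9.80, 9.99 and 10.20 in HET, with all 6 HET mice below the WT mean and overlapping groups. The genotypes differed by -0.21 (95% interval -0.42 to 0.01, limma adjp 0.443, exact permutation p 0.121), and the sets of replicates gave -0.05 and -0.37. At the 3 earlier ages its differences were 0.01, -0.00 and -0.06 (limma adjp 0.995, 0.993 and 0.897). In the sets of replicates the 1 month value was -0.08 and 0.08. Without the 3 WT mice, the E14.5 value was -0.07.

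*Hmgn3*, an HMGN gene known from neurons, glia and endocrine cells, differed little at any age. Its HET minus WT differences were 0.08, -0.07, -0.08 and -0.06 from E14.5 to 12 months (limma adjp 0.982, 0.71, 0.77 and 0.738). At 6 months all 6 HET mice lay below the WT mean and 2 below every WT mouse, in overlapping groups (exact permutation p 0.0779). The difference there was 0.01 in replicates 1 to 3 and -0.16 in replicates 4 to 6, so its sign rested on 1 set. At E14.5 the WT mice ran from 9.28, in replicate 5, to 9.72, and HET mice from 9.51 to 9.66. Without WT replicates 2, 3 and 5 the difference there was -0.07.

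**Figure D3:**
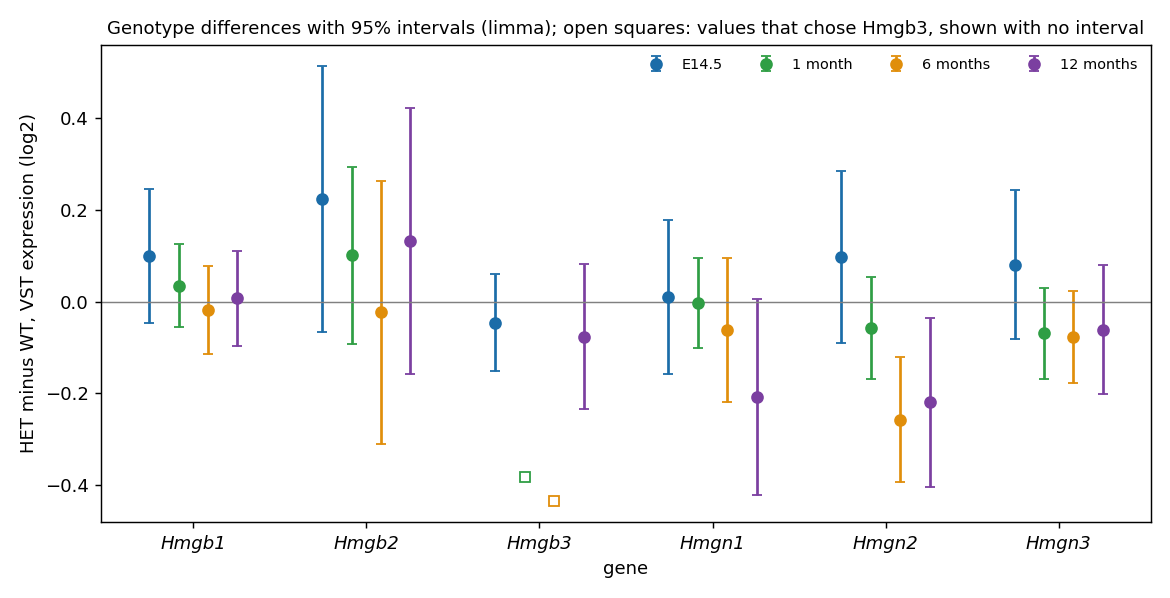
HET minus WT difference in VST expression (log2) for each gene at each age, with 95% limma intervals for 6 mice per genotype. Open squares are the values of Hmgb3 that chose it (-0.38 and -0.43), drawn with no interval. Of the others, Hmgn2 at 6 months (-0.26) and 12 months (-0.22) lie below 0 with their intervals. Neither passed the test over all genes in these fits, which use no replicate block.

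Whether the genotype difference changed with age was tested over all 48 samples. From E14.5 to 1 month and from 1 to 6 months, 0 of the 5 members other than *Hmgb3* were called by limma, against 0% of 17311 genes in both cases, with 796 and 581 genes at an unadjusted p below 0.05. From 6 to 12 months 0 of 5 were called against 0.0578%, with 1502 genes at an unadjusted p below 0.05. From E14.5 to 12 months 0 of 6 were called against 0.0635%, with 1990 genes, *Hmgn2* among them, at an unadjusted p below 0.05, and without the 3 WT mice the 11 genes called became 0.

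For all members but *Hmgn3*, the change from the embryo to the young adult was much larger than any difference between genotypes. From E14.5 to 1 month, 4 of the 5 members other than *Hmgb3* were called by limma in WT and 5 of 5 in HET, all lower, against 85.5% of 17341 genes in WT (41.7% lower) and 86.5% of 17291 genes in HET (42.1% lower). With most genes called in both directions, the calls set the members apart less than the sizes do. The median size of change over all genes was 0.78 in WT and 0.80 in HET.

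*Hmgb2* fell most, with -4.68 in WT and -4.81 in HET (limma adjp 1.75e-21 and 1.29e-24), from means of 11.27 and 11.49 to 6.58 and 6.68. The values of *Hmgb3* were lower at 1 month than at E14.5, with -3.32 in WT and -3.65 in HET, given without a test because its 1 month values chose it. Among HMGN genes, *Hmgn2* fell from a mean of 12.40 to 9.40 in WT and changed by -3.15 in HET (limma adjp 1.97e-22 and 7.42e-25). *Hmgn1* fell with -2.73 in WT and -2.74 in HET (limma adjp 2.58e-20 and 1.13e-23). *Hmgb1* fell least of the HMGB genes, with -1.52 in WT and -1.59 in HET (limma adjp 5.94e-20 and 1.89e-21). In all of these, every E14.5 mouse was above every 1 month mouse.

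*Hmgn3* kept its embryonic level more closely than the others. Its change was -0.10 in WT (limma adjp 0.17, not called) and -0.25 in HET (limma adjp 3.43e-05, lower). The WT value depended on the E14.5 libraries: without WT replicates 2, 3 and 5 it was -0.25 (limma adjp 0.00241), and without replicate 5 of each age it was -0.16 (limma adjp 0.0507). The difference between the genotypes in this change was -0.15 and did not pass the test (limma adjp 0.999), and was -0.0034 without those 3 mice. Without the same 3 mice the WT changes of the other members were -1.59 for *Hmgb1*, -4.87 for *Hmgb2*, -3.33 for *Hmgb3*, -2.81 for *Hmgn1* and -3.14 for *Hmgn2*, with 14226 genes called.

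**Figure D4:**
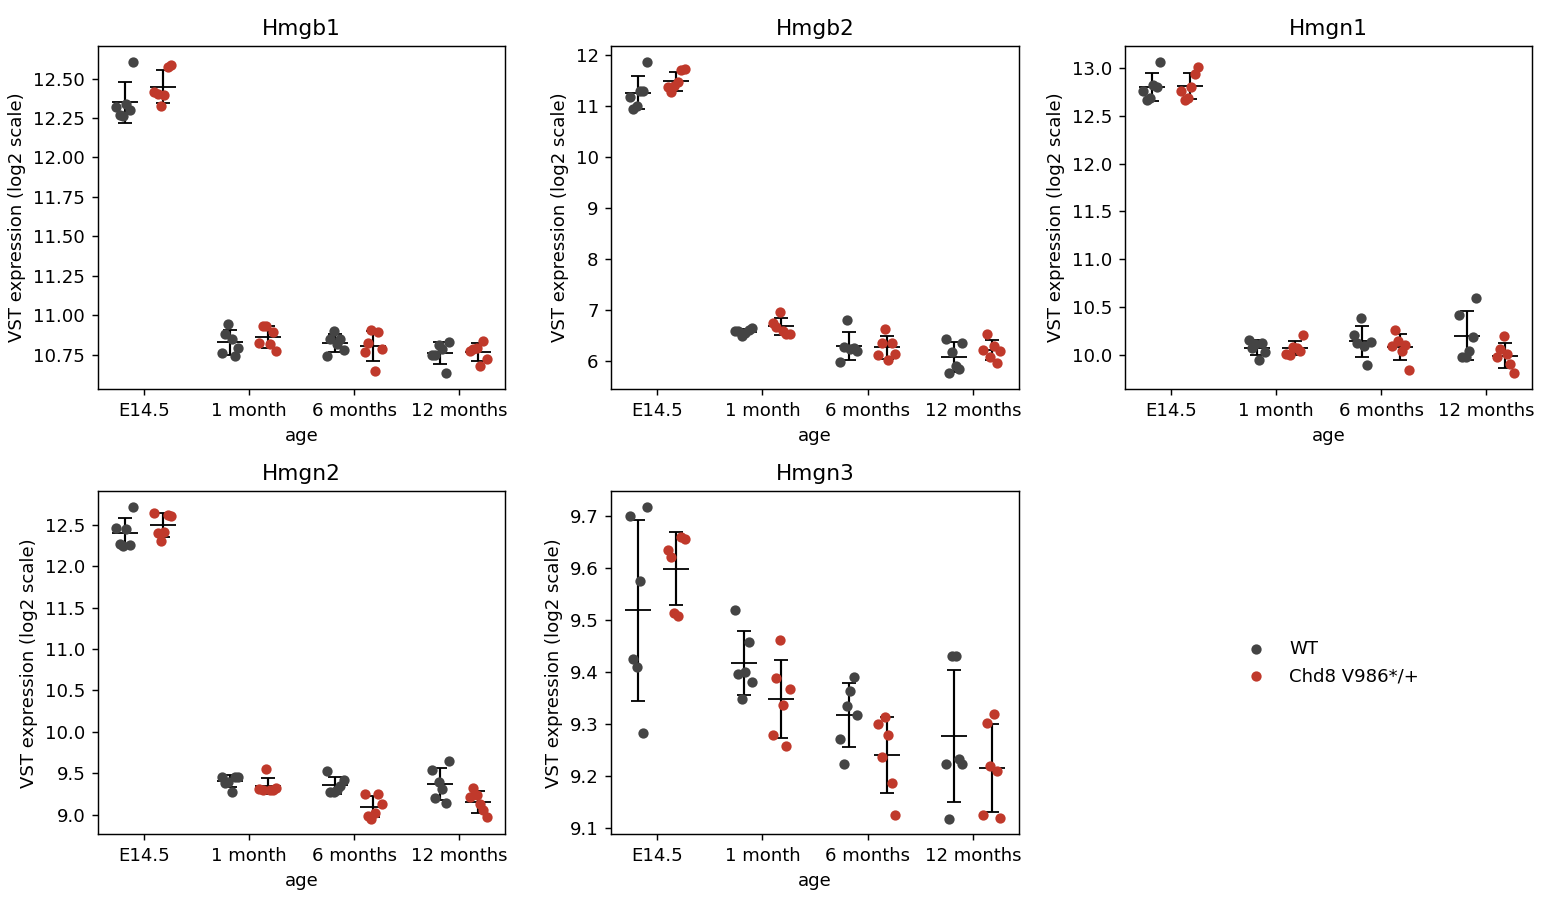
VST expression (log2 scale) of Hmgb1, Hmgb2, Hmgn1, Hmgn2 and Hmgn3 in every mouse by age, for WT in grey and Chd8 V986*/+ in red, with the mean ± SD of 6 mice. Axes differ between genes. Hmgb1, Hmgb2, Hmgn1 and Hmgn2 drop between E14.5 and 1 month, and Hmgn3 moves by 0.10 in WT and 0.25 in HET on its narrow axis.

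After 1 month *Hmgb2* and *Hmgn2* fell further in HET, and the other members tested were not called. Mean *Hmgb2* VST expression at 1, 6 and 12 months was 6.58, 6.30 and 6.08 in WT and 6.68, 6.27 and 6.22 in HET, and that of *Hmgn2* was 9.40, 9.35 and 9.37 in WT and 9.34, 9.10 and 9.15 in HET. Mean *Hmgb1* VST expression at these ages was 10.83, 10.82 and 10.76 in WT and 10.86, 10.80 and 10.77 in HET. *Hmgn1* stood at 10.07, 10.14 and 10.20 in WT and at 10.07, 10.08 and 9.99 in HET. *Hmgn3* had means of 9.42, 9.32 and 9.28 in WT and of 9.35, 9.24 and 9.22 in HET, steps near the spread between mice.

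From 1 to 6 months, 0 of 5 members other than *Hmgb3* were called by limma in WT, against 14.8% of genes, with 4090 genes and none of the 5 at an unadjusted p below 0.05. In HET, 2 of 5 were called, both lower, against 21.8% of genes. These were *Hmgb2*, with -0.41 (limma adjp 0.0103), and *Hmgn2*, with -0.25 (limma adjp 0.0139). In WT the same changes were -0.28 (limma adjp 0.219) and -0.05 (limma adjp 0.771), and the difference between genotypes did not pass the test for either gene (limma adjp 1). Without replicate 3 of each age, *Hmgb2* was called in WT too (-0.40, limma adjp 0.0934), and without replicate 1 *Hmgn3* was called in HET (-0.13, limma adjp 0.0893). The number called over all genes in WT, 2562, was 1593 without replicate 4 and 1622 without replicate 5, and in HET 3770 became 2467 without replicate 4.

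From 6 to 12 months, 0 of 5 members other than *Hmgb3* were called by limma in WT, against 0.0115% of genes, with 1283 genes at an unadjusted p below 0.05. In HET 0 of 5 were called, against 1.88% of genes, with 2303 genes at an unadjusted p below 0.05. The 2 genes called in WT became 0 without replicate 1, 2, 3 or 6 and 1 without replicate 5. The 325 genes called in HET became 18 without replicate 3, 27 without replicate 4, 52 without replicate 2 and 690 without replicate 1.

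Other genes of the wider family were looked at by lists. A chosen list held 8 other genes with a high mobility group symbol, not all of those in the deposited table. Of these 8, 7 were tested and *Hmgb4* was below the filter. From E14.5 to 1 month 6 fell and 1 rose in WT, with a median of -0.95 against 0.03 over all genes, and 6 fell and 1 rose in HET (median -1.01). The shares of all genes that fell and rose were 41.7% and 43.9% in WT and 42.1% and 44.5% in HET. *Hmga2*, an architectural factor of embryonic and stem cells, fell in WT (-5.64), and *Hmgxb3* rose (0.16), with limma adjp 5.20e-20 and 0.0342. Between genotypes limma called 0 of 7 at each age, with medians of 0.02, -0.02, -0.06 and -0.02 from E14.5 to 12 months.

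Of 27 other genes with an HMG box, 23 fell, 2 rose and 2 did not pass from E14.5 to 1 month in WT, with a median of -1.69. In HET 24 fell, 2 rose and 1 did not pass, with a median of -1.66. Among all genes, 41.7% fell and 43.9% rose in WT, and 42.1% fell and 44.5% rose in HET. *Sox11*, a factor of immature neurons, fell most in WT (limma adjp 1.93e-25), and *Sox4* and *Tcf7l2* by -4.65 and -4.84 (limma adjp 1.10e-26 and 1.32e-21). *Sox10*, a factor of oligodendrocytes, and *Sox8* rose by 4.25 and 1.44 (limma adjp 1.23e-18 and 2.55e-15). Between genotypes limma called 0 of 27 at each age, with medians of 0.05, -0.02, 0.02 and 0.09, and at 1 month the lowest value was that of *Lef1* (-0.29, limma adjp 0.604).

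Of 7 receptors and partners of extracellular HMGB1, 3 rose and 2 fell from E14.5 to 1 month in both genotypes, against 43.9% and 41.7% of all genes in WT and 44.5% and 42.1% in HET, with medians of 0.24 in WT and 0.22 in HET. *Havcr2*, *Tlr9* and *Tlr4*, receptors of immune cells, rose in WT (2.47, 1.95 and 0.78), while *Cxcr4* (-3.90) and *Ager* (-1.35) fell (limma adjp at most 2.98e-05 for these 5). *Cxcl12* (0.15) and *Tlr2* (0.24) did not pass. Between genotypes limma called 0 of 7 at each age, with medians of -0.03, -0.10, -0.12 and 0.06.

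Linker histones, which HMGN proteins displace from nucleosomes, mostly fell after the embryo, as did 41.7% of all genes in WT and 42.1% in HET. From E14.5 to 1 month 6 of 7 fell and *Hist1h1c* rose in both genotypes, with medians of -1.92 in WT and -1.90 in HET. *H1f0*, the linker histone known to build up in resting cells, fell in WT (-1.77), as did *Hist1h1d* (-2.72; limma adjp 2.37e-19 and 3.41e-08). Between genotypes limma called 0 of 7 at the first 3 ages and 0 of 6 at 12 months, with medians of 0.12, -0.04, -0.22 and -0.14. The lowest value was that of *Hist1h1d* at 6 months (-0.59, SE 0.28, limma adjp 0.655). The same gene had the highest value, at 1 month (0.60, SE 0.24, limma adjp 0.465). For *H1f0* the SE was 0.04 at 6 months and 0.05 at 1 month. The libraries were made from polyA RNA, so any histone RNA without a polyA tail would be largely missing from these values. Without the 3 WT mice, the E14.5 medians of these 4 lists, in the order given, were -0.00, 0.02, -0.18 and 0.11.

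Cell type markers give the setting of these changes. All 12 markers of dividing cells fell from E14.5 to 1 month in both genotypes, with medians of -5.31 in WT and -5.60 in HET, and 11 of 12 fell again from 1 to 6 months. Of all genes, 41.7% in WT and 42.1% in HET fell in the first step, and 7.91% and 10.8% in the second. Their mean VST expression was 10.94 ± 0.29 in WT and 11.11 ± 0.19 in HET at E14.5 (SD, n = 6), with the highest value in *Top2a*. After birth it was 5.76 and 5.75, then 4.83 and 4.79, then 4.67 and 4.71 in WT and HET by age, where no marker of the list was at the floor. The log2 of their summed level ran from 14.75 to 15.57 in WT and from 15.00 to 15.52 in HET at E14.5, and from 9.39 to 9.90 and from 9.51 to 9.81 at 1 month. Between genotypes limma called 0 of 12 at each age, although all 12 were positive at E14.5 (0.12 to 0.22, median 0.17). Without the 3 WT mice 6 of 12 were positive there, with a median of -0.01. The part of dividing cells in the values of the members was not tested.

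All 8 progenitor markers fell from E14.5 to 1 month in both genotypes (medians -3.28 in WT and -3.53 in HET), as did 41.7% of all genes in WT and 42.1% in HET. Their mean at 12 months was 7.59 ± 0.07 in WT and 7.95 ± 0.37 in HET (SD, n = 6), with 0 of 8 called by limma. *Eomes* alone differed by 1.92 there, and without it the means of the other 7 were 8.13 ± 0.11 and 8.27 ± 0.18. Markers of glia went the other way: 6 of 6 astrocyte, 7 of 7 oligodendrocyte lineage and 6 of 6 microglia markers rose in both genotypes, with WT medians of 3.62, 4.97 and 3.02. Of all genes, 43.9% rose in WT and 44.5% in HET. In HET minus WT, 5 of 6 astrocyte markers were negative at 1 month (list means 13.42 ± 0.08 in WT and 13.37 ± 0.12 in HET) and 6 of 6 were positive at 6 months (0.12 to 0.20), with 0 called by limma and list means of 13.17 ± 0.09 in WT and 13.31 ± 0.12 in HET. Of 7 oligodendrocyte lineage markers 4 were negative at 6 months, the lowest *Mog* (-0.26) and *Mag* (-0.24; limma adjp 0.314 and 0.378), with list means of 11.85 ± 0.05 and 11.76 ± 0.09. Endothelial markers were all negative at 1 month (-0.53 to -0.02) and all positive at 6 months (0.07 to 0.26), with none called by limma. Their list means were 9.30 ± 0.23 in WT and 9.10 ± 0.39 in HET at 1 month, and 9.19 ± 0.14 and 9.36 ± 0.21 at 6 months.

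**Figure D5:**
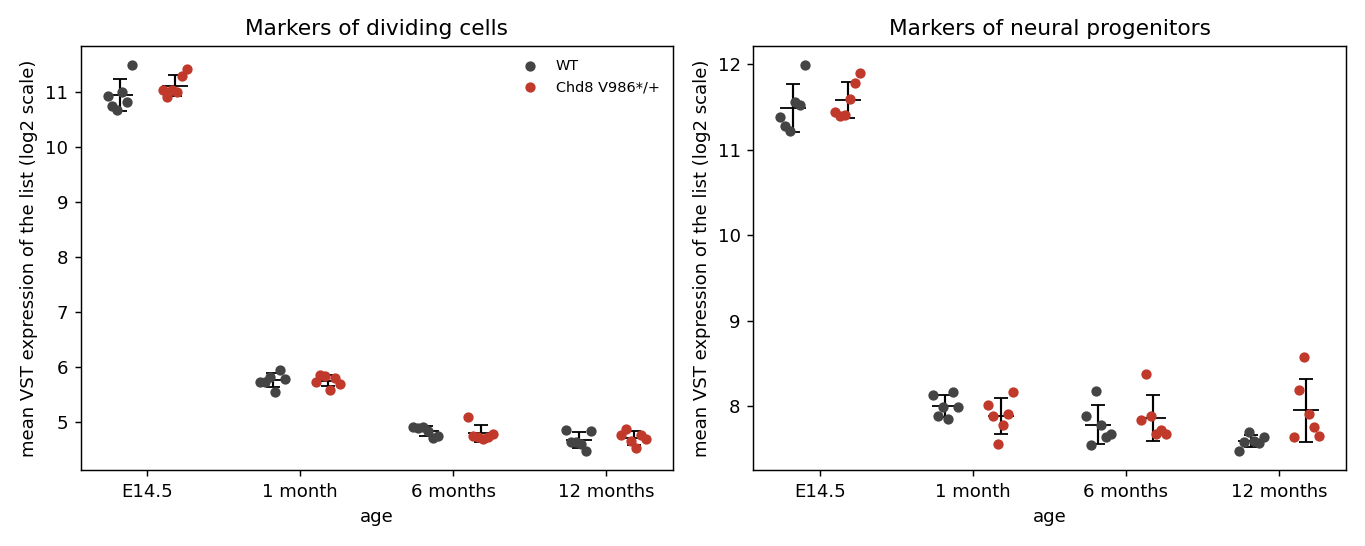
Mean VST expression (log2 scale) of 12 markers of dividing cells (left) and 8 markers of neural progenitors (right) in every mouse by age, for WT in grey and Chd8 V986*/+ in red, with the mean ± SD of 6 mice. Dividing cell markers drop from 10.94 in WT and 11.11 in HET at E14.5 to 5.76 and 5.75 at 1 month, and HET mice spread widest in the progenitor list at 12 months.

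In WT, against 43.9% of all genes that rose and 41.7% that fell from E14.5 to 1 month, 6 of 12 cortical neuron markers rose and 6 fell, and 1 of 4 choroid plexus markers rose and 3 fell. All 6 erythroid markers fell, as did 5 of 7 interneuron and ganglionic eminence markers (2 rose), 3 of 5 endothelial markers (1 rose) and 6 of 7 regional markers tested. Between genotypes limma called none of the markers in any of the 11 lists at any age, with the numbers of genes at an unadjusted p below 0.05 given above for each age.

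With the 8 group means removed, the members still varied together from mouse to mouse to different degrees. Over 48 samples, Pearson's r between pairs of members ran from 0.17 (*Hmgn1* and *Hmgn3*) to 0.63 (*Hmgb1* and *Hmgb2*), and pairs with *Hmgb3* ran from 0.19 to 0.40. With the mean of the dividing cell markers, r was 0.69 for *Hmgn2*, 0.61 for *Hmgb1*, 0.58 for *Hmgb2*, 0.54 for *Hmgn1*, 0.32 for *Hmgn3* and 0.31 for *Hmgb3*. The lowest values were thus those of *Hmgb3* and *Hmgn3*. With other lists, r was highest in size for *Hmgn1* with progenitor (0.63) and interneuron markers (0.60) and for *Hmgn3* with the regional markers (-0.61), where *Hmgn2* had -0.44, *Hmgb1* -0.39 and *Hmgb3* -0.06. The regional list varied mainly at E14.5 (SD 1.41 in WT and 0.55 in HET, and at most 0.12 in later groups), so those r rest on that age. Both sides of each r were measured in the same libraries, with the same depth and batch correction.

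Genes most like *Hmgb3* over all 48 samples were *Tubb5*, *Lmnb1*, *Hn1*, *Idh1* and *Hmgn2* (Pearson's r 0.995, 0.994, 0.994, 0.994 and 0.994, of 17310 genes). These r span the step between E14.5 and the later ages, at which most genes changed. *Hmgb2*, *Hmgb1* and *Hmgn1* ranked 152, 158 and 160, and *Hmgn3* ranked 5605 (r 0.75). By Spearman's rho the order differed: *Hmgn2* ranked 8, *Hmgn3* 123, *Hmgb2* 1060, *Hmgn1* 1878 and *Hmgb1* 2015, and 0 of the 5 genes named first were among the top 5.

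After removal of the group means, *Marcksl1*, *Afmid*, *Gorab*, *Pdzph1* and *Mir9-3hg* were most like *Hmgb3* (Pearson's r 0.67, 0.60, 0.60, 0.59 and 0.57 over 48 samples), and 3 of the 5 were also among the top 5 by Spearman's rho. *Marcksl1*, which encodes an actin-binding protein of growing neurons, was itself lower in HET at 1 month (-0.22, limma adjp 0.0374). At E14.5, 6 and 12 months its differences were 0.03, -0.07 and 0.04 (limma adjp 0.99, 0.883 and 0.892). The other 4 were not called at any age.

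Of the 6 annotated genes next to *Hmgb3* on chromosome X, 5 were looked at and were not called by limma at any age, and the nearest, *Gm17665* (43.8 kb before it), had no value in the table. *Cd99l2*, 63.1 kb before it, differed by -0.08 at 1 month and -0.04 at 6 months, and *Mtmr1* by 0.07 and -0.03 (limma adjp 0.608, 0.888, 0.638 and 0.901). *Gpr50*, 103 kb after it, differed by -0.22 and 0.06, and *Vma21* by 0.09 and 0.02 (limma adjp 0.824, 0.987, 0.476 and 0.952). *Gm1141* differed by 0.12 and 0.17 (limma adjp 0.895 and 0.866). The largest neighbour differences were those of *Gm1141* (-0.70) and *Gpr50* (0.67) at 12 months (limma adjp 0.32 and 0.439). *Hmgb3* itself differed by -0.38, -0.43 and -0.08 from 1 to 12 months.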

How the data were processed

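PolyA RNA of mouse cortex was sequenced from 48 mice. The authors filtered and trimmed reads, aligned them to mm9 with STAR 2.5.2b, quantified with Salmon 0.11.3 and deposited variance-stabilized log2 values from DESeq2 1.22.2, from a batch-corrected model; the batch is not named. Over all samples the means of replicates 1 to 3 and 4 to 6 were equal within 3.38e-14. Genes with a mean at least 0.5 above the floor were tested with limma 3.58.1 (trend, R 4.3.3), with Benjamini-Hochberg adjusted p (adjp) over all genes tested and a threshold of 0.1. Single members also had exact permutation tests of both sides (smallest p 0.0022). Python 3.11.15, pandas 2.3.3, numpy 2.4.6 and matplotlib 3.10.9 were used, and scripts were tested on simulated data. Members and lists were chosen with earlier results of these data known. Named genes are the members, *Chd8*, list genes called or with the largest or smallest change, and 10 genes most like *Hmgb3*; other named list genes and the neighbours of *Hmgb3* were picked after their values were seen. Alternatives covered blocks, filters, trend, normalization, covariates (with read depth from the study's list of samples), thresholds and single mice. The regional marker covariate, the omission of 3 WT mice and that of *Eomes* were added after seeing the data.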

Additional observations from a re-analysis of the deposited data

Results flagged for a closer look

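In each group of 6 mice, a mouse was set apart when its gap to the nearest other mouse was a larger part of the range of the group than Dixon's critical value (95%). This picked 3 of 48 groups of the 6 members, and chance picks about 1 in 20. *Hmgb1* was 12.61 in WT replicate 6 at E14.5, with the other 5 mice between 12.26 and 12.34. *Hmgb2* was 6.81 in WT replicate 3 at 6 months, with the others between 5.99 and 6.28. *Hmgn2* was 9.55 in HET replicate 3 at 1 month, with the others between 9.29 and 9.32. In all 3 cases the mouse was the highest of its group, and the cause was not tested.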

How the results depend on the processing

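*Hmgb3*, HET minus WT, ran over the alternatives from -0.11 to -0.04 at 12 months (limma adjp 0.433 to 0.862) and from -0.06 to -0.02 at E14.5. At 1 month it ran from -0.40 to -0.36 and at 6 months from -0.48 to -0.40, a description only, since its choice fixed the direction there. For *Hmgn2* it ran from -0.30 to -0.22 at 6 months (limma adjp 0.0683 to 0.503) and from -0.32 to -0.12 at 12 months (limma adjp 0.0738 to 0.521). Of the results of other genes, 21 of *Hmgn1*, 8 of *Hmgb2*, 7 of *Hmgb1*, 4 of *Hmgn2* and 4 of *Hmgn3* changed sign, and 7 of *Chd8*, all at E14.5, kept their sign and lost the call. Where a value below differs from that in the report, the cause was not tested unless fewer mice or genes enter by construction.

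With the replicate number as a replicate block, genes called between genotypes were 2 at E14.5 (1 in the report), 13 at 1 month (24), 30 at 6 months (16) and 2 at 12 months (8), and 0 in WT from 6 to 12 months (2). It called 1 member, *Hmgn2* at 6 months (adjp 0.0683). The labels do not say that a number marks a shared litter or batch. Same-numbered WT and HET mice had mean correlations of 0.23, 0.02, 0.05 and -0.03 from E14.5 to 12 months. At E14.5, WT replicates 1, 3, 4 and 6 correlated best with the HET mouse of their own number (r 0.58, 0.22, 0.07 and 0.38). After birth this held only for replicate 2 at 1 month (r 0.10) and replicate 1 at 6 months (r 0.17). Without a label for pairs, and with few matches after birth, the numbers were not used as pairs in the main fits. With 1 fit of all 48 samples and the replicate block, genes called were 274, 45, 38 and 1006 from E14.5 to 12 months, with 1 member at 12 months (*Hmgn2*, adjp 0.0738). The differences of genotype effects then had 2 genes from E14.5 to 1 month (0 without the block), 29 from 6 to 12 months (10) and 254 from E14.5 to 12 months (11). The block changed no other member call.

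With 1 fit of all 48 samples and no block, genes called were 93 at E14.5, 37 at 1 month and 520 at 12 months, 7 in WT and 100 in HET from 6 to 12 months (325). At E14.5, no filter gave 3 genes, a filter at 1.5 gave 2, limma without trend 0, quantile normalization 2, median-centred samples 2, the set of replicates as covariate 2, the regional marker covariate 0 and omission of 3 WT mice 0. At 6 months, limma without trend gave 4, and read depth as covariate gave 2 and, at 12 months, 3. An adjp below 0.05 gave 15, 5 and 3 genes at 1, 6 and 12 months, 1683 and 0 in WT from 1 to 6 and 6 to 12 months, and 153 in HET from 6 to 12 months. In WT from 6 to 12 months, limma without trend gave 1, quantile normalization 0 and median-centred samples 1.

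Values after a change of sign are given here by alternative. *Hmgn1* at E14.5 was -0.0048 with read depth as covariate, -0.052 with the marker covariate and -0.072 without the 3 WT mice, *Hmgn2* -0.043 and -0.047 with the latter 2, and *Hmgn3* -0.058 and -0.066. With median-centred samples, *Hmgn1* at 1 month was 0.0083, its change of genotype effect from E14.5 to 1 month 0.0033, and *Hmgb1* in WT from 1 to 6 months 0.0046. With quantile normalization, *Hmgb1* in HET from 6 to 12 months was 0.00024. Without the 3 WT mice, changes of genotype effect from E14.5 to 1 month were 0.0071 for *Hmgb1*, 0.061 for *Hmgb2* and 0.069 for *Hmgn1*, and from E14.5 to 12 months 0.092 for *Hmgb2* and 0.0045 for *Hmgn3*, with 0 genes called (11).

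Leaving out 1 replicate, genes called between genotypes ran from 0 to 2, 3 to 32, 5 to 21 and 2 to 251 from E14.5 to 12 months. In WT they ran from 1593 to 2426 from 1 to 6 months, with 0 to 1 members, and from 0 to 2 from 6 to 12 months; in HET from 2467 to 3826 and from 18 to 690. *Hmgn1* ran from -0.030 to 0.063 at E14.5, -0.031 to 0.013 at 1 month, -0.022 to 0.15 in WT from 6 to 12 months and -0.040 to 0.084 in HET from 1 to 6 months. *Hmgb1* ran from -0.039 to 0.013 at 6 months, -0.018 to 0.025 at 12 months and -0.028 to 0.0022 in WT from 1 to 6 months. *Hmgb2* ran from -0.096 to 0.079 at 6 months and -0.12 to 0.041 in HET from 6 to 12 months, where *Hmgn3* ran from -0.043 to 0.0056, and *Hmgn2* in WT from -0.025 to 0.062.

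Limits are the 6 mice per group, bulk tissue in which cell types are mixed, values already corrected for a batch that is not named, and no read counts, so the error of low values could not be modelled from counts. Males alone were studied, and the allele came from 1 founder. Ages were different mice. Close copies leave the values of 5 members uncertain. E14.5 WT libraries differ in regional markers, and *Hmgb3* was chosen by the values of 2 of the ages described. Protein was not analysed here.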

Other observations

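Some marker genes had large values that were not called. *Eomes*, a factor of intermediate progenitors, differed by 1.92 between HET and WT at 12 months without passing the test (limma adjp 0.338), and *Ttr*, the main choroid plexus transcript, by 1.49 at 1 month (limma adjp 0.638). All 6 erythroid markers were lower in HET at E14.5 (-0.40 to -0.19, and -0.57 to -0.21 without WT replicates 2, 3 and 5), with 0 of 6 called by limma. Of 6 microglia markers 5 were lower in HET at 1 month (list means 9.73 in WT and 9.64 in HET), and all 6 were higher in HET at 6 months (0.00 to 0.21) and 12 months (0.03 to 0.28), with 0 of 6 called by limma each time. Choroid plexus markers varied widely between mice after birth: at 1 month their mean was 7.68 ± 1.08 in WT and 8.39 ± 1.23 in HET (SD, n = 6), and HET minus WT was positive for all 4 at 1 month and negative for all 4 at 6 months.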
